A study of Drosophila melanogaster with 4 samples.

Results

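The euchromatic body of chromosome arm 3L of Drosophila melanogaster carried 1501 narrow regions of HP2 enrichment at the third larval instar, in nuclei of the wild-type strain Oregon-R. They come from the combined list, which the authors deposited for both ChIP replicates together and which holds 12660 regions. Members were selected on position and on measured width: a region was taken if it lay on 3L with its midpoint between positions 1000001 and 21543557 of FlyBase release 5 and was under 4000 bp wide. These limits leave out 1 Mb at the telomeric end and 3 Mb at the centromeric end of the arm. The members made up 11.9% of the combined list and 93.1% of the 1613 combined regions of the 3L body. For each member, the overlap by at least 1 bp with the enriched clusters called in each ChIP replicate was recorded.

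The series compared chromatin immunoprecipitated with the HP2 antibody Ab2-90, in 2 ChIP libraries, with 2 input libraries of sonicated chromatin from the same strain, stage and genotype. Replicate 1 and replicate 2 of the ChIP were each called against the input of the same number, per the labels. All 4 libraries came from wild-type larval nuclei, and the labels name no tissue within the larva, so the regions of different cell types cannot be told apart. The sources used here do not say if different batches of larvae were used, so technical and biological differences between the replicates cannot be told apart.

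HP2 is the product of Su(var)2-HP2, a gene whose mutations suppress the silencing of genes placed next to heterochromatin. The protein binds HP1a, which in turn binds histone H3 methylated at lysine 9 and packs the repeat-rich DNA around the centromeres and on chromosome 4. HP1a and its partners are also found at separate sites in the gene-rich arms, outside the large heterochromatic blocks, and the 3L members are regions of that kind by position.

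Every region comes with its borders and a score of the authors. The sources used here name neither the scale of the score nor the caller, its threshold or the way in which the replicates were combined. Scores are therefore given in the authors' units, to rank and describe regions within a list, and scores of different lists are set side by side only as ranks or as listed values. Read counts are not part of the lists, so sequencing depth is unknown. Intervals of shares are exact (Clopper-Pearson) 95% binomial intervals, and for a count of 0 the limit given is instead that of 3 counts of the total. They cover counting error only, and regions of the same libraries are not replicates of each other. The width, the score and the overlap with the replicates all come from the same ChIP data that defined the members, so they are described without a test. With 2 libraries no test across samples was made.

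Most members of the 3L body were seen in 1 replicate list or in none. Of the 1501 members, 239 (15.9%, interval 14.1 to 17.9%) overlapped clusters of both replicates, where 22.3% of all combined regions did. A further 99 (6.6%, 5.39 to 7.97%) overlapped replicate 1 only and 367 (24.5%, 22.3 to 26.7%) replicate 2 only, against 3.82% and 29.9% of all combined regions. The remaining 796 (53.0%, 50.5 to 55.6%) overlapped neither list, against 43.9% of all combined regions. Taken separately, replicate 1 touched 338 members (22.5%, all combined regions 26.2%) and replicate 2 touched 606 (40.4%, all combined regions 52.2%). The replicate 2 list was the longer one in the 3L body, with 762 clusters against 469 in replicate 1, and it covered 8.01% of the body where replicate 1 covered 4.62%.

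Seen from the replicate lists, most clusters of the 3L body fell on a narrow region. The share was below the 93.1% that narrow regions made up of the combined regions of the body. In replicate 1, 339 of the 469 body clusters (72.3%) touched a member, 124 (26.4%) touched a broad region of at least 4000 bp only, and 6 (1.28%) touched no combined region. In replicate 2, 607 of the 762 clusters (79.7%) touched a member, 142 (18.6%) a broad region only, and 13 (1.71%) no combined region. Where a member and a cluster touched, the match was nearly 1 to 1. Replicate 1 had 1 cluster that touched 2 members and replicate 2 had 7, while 2 members were touched by 2 clusters of replicate 1 and 8 members by 2 clusters of replicate 2.

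The narrow regions of the 3L body were set beside those of 2L, 3R and the X, with the same margins and the same width limit, and the values of 3L mostly lay near those of 2L and 3R. Narrow regions overlapped in both replicates made up 15.9% on 3L, against 14.9% (12.9 to 17.0%) of 1217 on 2L, 15.7% (up to 17.5%) of 1777 on 3R and 12.3% (10.7 to 13.9%) of 1664 on the X. The share in neither list was 53.0% on 3L, against 53.4% on 2L, 57.0% on 3R and 51.0% on the X. The share found in replicate 1 was 22.5% on 3L (20.4 to 24.7%), against 21.2% on 2L, 21.3% on 3R and 15.4% (13.7 to 17.2%) on the X. The difference between 3L and the X was not tested, and replicate 2 covered 8.01% of the 3L body against 11.8% of the X body. Over the 3 other bodies together, 4658 narrow regions overlapped both lists in 14.3%, replicate 1 only in 4.89%, replicate 2 only in 26.9% and neither in 53.9%, with 19.1% touched by replicate 1 and 41.2% by replicate 2.

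The density of narrow regions was 73.1 per Mb on 3L, against 64.0 per Mb on 2L, 74.3 per Mb on 3R and 90.3 per Mb on the X. Counting only regions overlapped in both replicates, it was 11.6 per Mb on 3L, against 9.52 per Mb on 2L, 11.7 per Mb on 3R and 11.1 per Mb on the X. The X thus had the most narrow regions per Mb in the combined list, but not in the part found in both replicates. The median combined score was 0.346 on 3L, against 0.348 on 2L, 0.350 on 3R and 0.412 on the X. The 3L members together spanned 2640 kb, or 12.9% of the 20.5 Mb body.

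**Figure D1:**
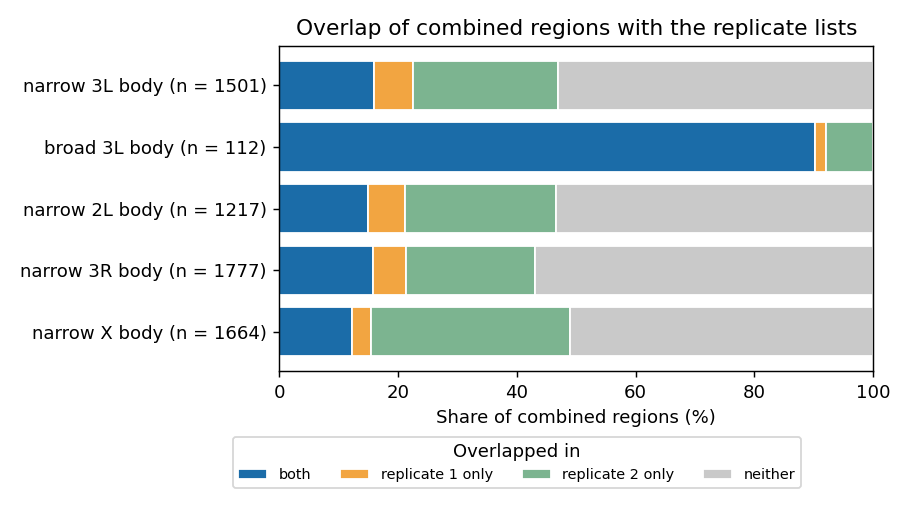
Share of combined regions (x axis, percent) that overlapped clusters of both replicates, of 1 replicate only or of neither, for the narrow regions of the 3L body, its broad regions, and the narrow regions of the 2L, 3R and X bodies. The narrow 3L regions had 15.9% in both lists, against 90.2% of the broad 3L regions and 12.3 to 15.7% on the other arms.

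The 112 broad regions of the 3L body were found again far more often than the narrow ones. Narrow regions overlapped both lists in 15.9%, against 101 of 112 (90.2%, with a lower bound of 83.1%) for broad regions. Neither list had 53.0% of the narrow regions, against 0 of the 112 broad regions, which allows a share of up to 2.68% (3 counts of the total). Among regions overlapped in both lists, the median combined score was 0.455 for narrow and 0.587 for broad regions. A wider region has more sequence in which an overlap of 1 bp can occur, and how much of the difference goes with that was not tested.

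Members and other regions on either side of the limit of 4000 bp were as follows. The widest members were 3L:6740858-6744842 (3985 bp, combined score 0.401, replicate 2 only), 3L:1941016-1944990 (3975 bp, 0.331, replicate 1 only) and 3L:7360370-7364344 (3975 bp, 0.624, both). Just outside lay 3L:5743210-5747218 (4009 bp, combined score 0.874), 3L:9063532-9067546 (4015 bp, 0.438) and 3L:8667950-8672004 (4055 bp, 0.530), all found in both replicates.

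Within the members, width went with overlap step by step. The members ranged from 1001 to 3985 bp, with a median of 1553 bp and quartiles of 1175 and 2117 bp. Of 706 members under 1500 bp, 0 overlapped both replicates, which allows a share of up to 0.425% (3 counts of the total), and 613 (86.8%) overlapped neither. The share in both lists was 7.24% of 359 members of 1500 to 1999 bp and 38.8% of 188 members of 2000 to 2499 bp. It was 44.7% of 123 members of 2500 to 2999 bp, 67.1% of 73 members of 3000 to 3499 bp and 69.2% (54.9 to 81.3%) of the 52 widest. Of the 52 widest members 0 were in neither list. Members in both lists had a median width of 2.65 kb, those in replicate 1 only 1.78 kb, those in replicate 2 only 1.88 kb and those in neither 1.20 kb. The narrow regions of the other arms were alike in this. Median widths in both lists and in neither were 2.70 and 1.25 kb on 2L, 2.66 and 1.23 kb on 3R, and 2.81 and 1.23 kb on the X.

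The lists also differed in the least width they hold. No cluster of either replicate list was under 1301 bp anywhere in the genome, while the combined list went down to 1001 bp. Of the members, 535 (35.6%) were narrower than 1301 bp, and 0 of them overlapped both lists, 12 replicate 1 only, 30 replicate 2 only and 493 neither. Among the 966 members of at least 1301 bp, 239 (24.7%, 22.0 to 27.6%) overlapped both lists and 303 (31.4%, 28.4 to 34.4%) neither. The choice of this width as a limit was made after the data were seen. The part of the different minimum widths in the missing overlap of the narrowest members was not tested beyond these counts.

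**Figure D2:**
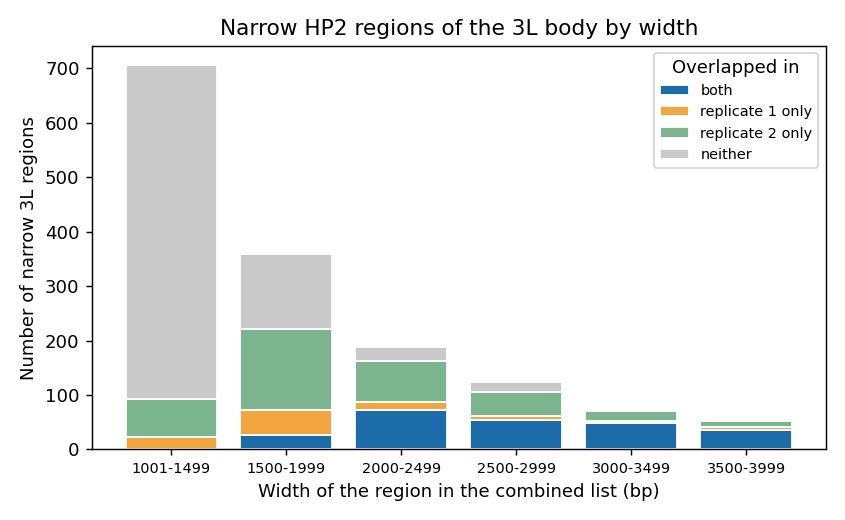
Number of narrow 3L regions (y axis) in bins of region width in base pairs (x axis), coloured by the replicate lists they overlapped. The bin of 1001 to 1499 bp held 706 members and 0 of them were in both lists, while 36 of the 52 members of 3500 to 3999 bp were.

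The share of members found in both lists was also higher at higher combined scores, above all from 0.5 up. Members of these scores were wider too. The median width was 1.64 kb at scores from 0.4 to under 0.5 and 2.57 kb from 0.5 to under 0.7. How much of the rise in share goes with width was not tested. Scores of the members ranged from 0.041 to 2.035, with a median of 0.346 and quartiles of 0.305 and 0.391. Members in both lists had a median of 0.455 (quartiles 0.374 and 0.712), against 0.339 (0.305 and 0.374) for members in neither, a difference of 0.116. The same order held for narrow regions elsewhere, with medians of 0.478 against 0.344 on 2L, 0.492 against 0.340 on 3R and 0.581 against 0.403 on the X. Without replicate 1, members found in replicate 2 exceeded those not found by 0.024, and without replicate 2, members found in replicate 1 exceeded those not found by 0.067. Among the 1065 members under 2000 bp, of which 2.44% were in both lists, the difference between both and neither was -0.018. Members found in replicate 1 only had a median of 0.320 and those in replicate 2 only of 0.339, neither of them above the 0.339 of members in neither list. These groups differed in width, with medians of 1.78, 1.88 and 1.20 kb in the same order. The scores were not compared at equal width. Of 336 members scoring under 0.3, 12 (3.57%) were in both lists, and of 827 scoring from 0.3 to under 0.4, 63 (7.62%) were. The share was 28.2% of 216 members from 0.4 to under 0.5 and 73.7% of 57 members from 0.5 to under 0.7. It reached 93.2% of 44 members from 0.7 to under 1.0 and 95.2% (76.2 to 99.9%) of the 21 members scoring 1.0 or more.

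Width and score were related differently in the groups, as a description over regions that share the same libraries. Spearman's rho between width and combined score was 0.27 over the 239 members in both lists, -0.40 over the 796 in neither and 0.15 over all 1501. Among members in neither list the narrower ones thus tended to have the higher scores.

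The strongest narrow site of the 3L body was the same in every list. It was 3L:6971718-6974406, 2689 bp wide, with a combined score of 2.035, and it ranked first of the 239 shared members in replicate 1 (score 1.637) and in replicate 2 (score 2.369). The cluster of replicate 1 ran from 6971807 to 6974299 and that of replicate 2 from 6971794 to 6974332, so both starts lay within 89 bp of the combined start and both ends within 107 bp of the combined end. The second site, 3L:14529598-14531904 (2307 bp, combined score 1.655), was also second in both replicates, with scores of 1.267 in replicate 1 and 1.979 in replicate 2. Its replicate clusters ran from 14529600 to 14531777 and from 14529608 to 14531872.

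Below these, the order of the leading sites differed between the replicates by 0 to 18 places. The site 3L:12726550-12729096 had a combined score of 1.419, with scores of 1.012 (rank 9) in replicate 1 and 1.734 (rank 5) in replicate 2. The site 3L:9960418-9962744 scored 1.412, with 0.985 (rank 10) and 1.806 (rank 3), and 3L:13442194-13444894 scored 1.333, with 0.898 (rank 15) and 1.687 (rank 7). The site 3L:17467054-17469570 scored 1.331 and took rank 8 in each replicate, at 1.048 and 1.647. Ranks are those among the 239 members found in both lists.

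The remaining leading sites included the widest of the 10. The site 3L:17838480-17842378, at 3899 bp, scored 1.305, with 1.246 (rank 3) in replicate 1 and 1.742 (rank 4) in replicate 2. The replicate 1 cluster there covered its left part only, from 17838526 to 17840947, while that of replicate 2 ran from 17838482 to 17841676. The site 3L:9126394-9129082 scored 1.312 (ranks 11 and 6), 3L:14182636-14185024 scored 1.250 (ranks 5 and 12), and 3L:8416964-8419346 scored 1.191 (ranks 29 and 11). The other 9 leading sites were 2.31 to 2.70 kb wide, close to the median of 2.65 kb of all members in both lists.

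Some members without a cluster in either replicate had high combined scores, and they were among the narrowest. The member 3L:9123674-9124720, 1047 bp wide, had a combined score of 1.424, higher than that of all but 2 other members and carried by 2 other combined regions. It lay 1.67 kb from the leading site at 3L:9126394-9129082, and the nearest replicate clusters, 1.87 kb away in replicate 1 and 1.79 kb away in replicate 2, were those of that site. The member 3L:13525164-13526194 (1031 bp) scored 0.902, a value of 3 other combined regions too, with its nearest replicate clusters 17.1 kb and 23.4 kb away. The member 3L:21478470-21479512 (1043 bp) scored 0.880, a value that 19 other combined regions carried as well. Its nearest replicate clusters were 7.86 kb and 10.1 kb away.

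The scores of the same region in the replicates were related over the 239 shared members, with a Spearman's rho of 0.64. All scores of a replicate come from the same ChIP and input library, so this is a description with no test. Replicate 1 scores ranged from 0.204 to 1.637 with a median of 0.494, and replicate 2 scores from 0.240 to 2.369 with a median of 0.585. Of the 60 highest of these 239 shared members in each replicate, 48 (80% of either set) were the same. The overlap that unrelated orders of the 239 would give was not computed. Members found in 1 replicate only could not enter these sets, whatever their score. The combined score followed replicate 2 more closely than replicate 1, with a rho of 0.94 against 0.73.

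Members that were found in 1 replicate only had lower scores in that replicate than the shared ones. Replicate 1 scores had a median of 0.494 (quartiles 0.427 and 0.608) in shared members and 0.472 (0.421 and 0.517) in members of replicate 1 only, so the bulk of both groups overlapped. Replicate 2 scores had a median of 0.585 (0.463 and 0.894) in shared members and 0.477 (0.406 and 0.543) in members of replicate 2 only. The highest score of a member found in replicate 1 only was 0.743, and that of a member found in replicate 2 only was 1.444.

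**Figure D3:**
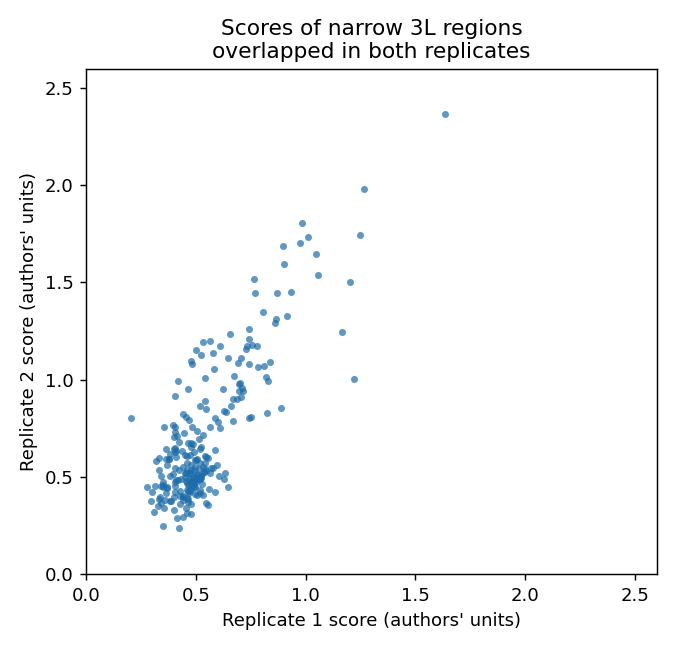
Replicate 1 score (x axis) and replicate 2 score (y axis), in the authors' units, of the 239 narrow 3L regions overlapped in both replicates; each point is 1 region, and the axes belong to different lists, so only the order along each can be read. The rank correlation was 0.64, and the region with scores of 1.637 and 2.369 stood highest in both.

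The ranks of some shared members differed widely between the replicates. The members with the largest rank differences, chosen after their values were seen, included 3L:12742170-12744238, last of the 239 in replicate 1 (score 0.204) and rank 72 in replicate 2 (score 0.805), and 3L:7927834-7930446, with ranks 198 and 57. In the other direction, 3L:21233114-21236526 had rank 76 in replicate 1 (0.555) and rank 228 in replicate 2 (0.355), and 3L:14961802-14963708 had ranks 77 and 225.

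The centres of the replicate clusters were then measured in the 239 shared members. Since both clusters had to touch the same region of under 4000 bp, their distance is limited by the way the members were chosen and is given as a description. The centre of the replicate 1 cluster was at a median distance of 148 bp from the centre of the combined region, and within 250 bp in 154 of 239 members (64.4%). For replicate 2 the median distance was 96.5 bp, with 177 members (74.1%) within 250 bp. The centres of the clusters of both replicates were 148 bp apart at the median, within 250 bp in 151 members (63.2%) and more than 1 kb apart in 18. In 235 members the clusters of the replicates also overlapped each other, and in 4 they touched different parts of the region. The replicate 1 clusters covered a median of 76.5% of the combined region and the replicate 2 clusters 88.9%. They were narrower than it in 236 and 218 of the 239 members, with median widths of 1.96 kb and 2.15 kb.

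**Figure D4:**
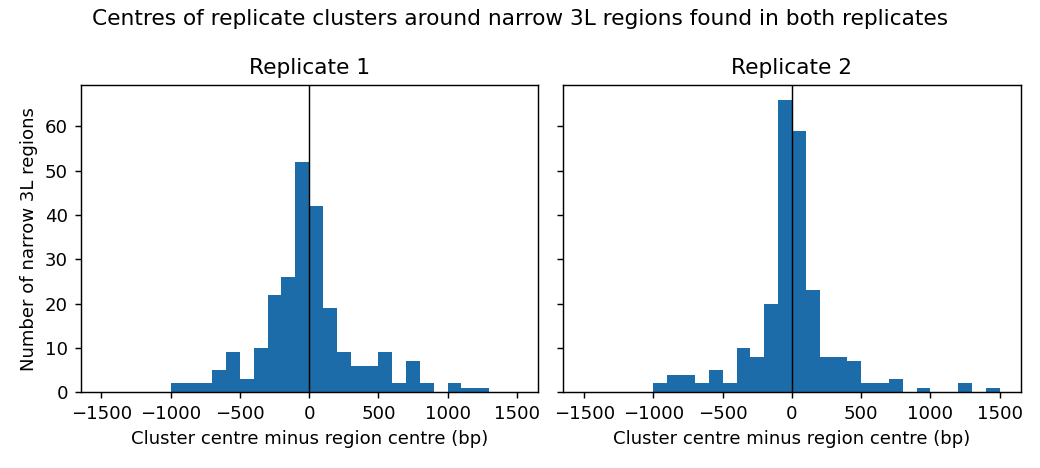
Distance in base pairs from the centre of each narrow 3L region to the centre of its replicate cluster (x axis, negative toward the telomeric side) for replicate 1 (left) and replicate 2 (right); the y axis counts the 239 regions overlapped in both lists in 100 bp bins, and distances past 1500 bp are drawn in the end bins. The counts peak around 0, with 64.4% of the regions within 250 bp in replicate 1 and 74.1% in replicate 2.

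Most members missing from a replicate had no called cluster of it close by. The lists hold called clusters only, so signal below the threshold at these members was not measured. Of the 367 members found in replicate 2 only, 34 (9.26%) lay within 1 kb of a replicate 1 cluster, and the median distance to the nearest one was 7.50 kb. Of the 99 members found in replicate 1 only, 18 (18.2%) lay within 1 kb of a replicate 2 cluster, at a median distance of 4.51 kb. Of the 796 members in neither list, 155 (19.5%) lay within 1 kb of a cluster of either replicate and 251 (31.5%) were more than 10 kb from any.

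Narrow regions were found in every 1 Mb window of the 3L body. In the 20 full windows of 1 Mb the number of members ran from 43 to 113, with a median of 68. The window 3L:1000001-2000000, nearest the telomere, held the most, with 113 members, of which 18 were in both lists, 8 in replicate 1 only, 29 in replicate 2 only and 58 in neither. The fewest, 43, lay in 3L:10000001-11000000, of which 7 were in both lists, 3 in replicate 1 only, 9 in replicate 2 only and 24 in neither. The replicate lists gave 34 and 56 clusters in the fullest window and 11 and 20 in the sparsest, in replicates 1 and 2. The sparsest window was thus the one with the fewest clusters in each replicate too, where windows held 11 to 37 clusters in replicate 1 and 20 to 58 in replicate 2.

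Members found in both lists numbered 5 to 20 per window. The window 3L:3000001-4000000 held the most, with 20 of its 93 members (21.5%), and 3L:2000001-3000000 and 3L:14000001-15000000 held 5 each. The share in both lists was highest in 3L:18000001-19000000, with 12 of 45 members (26.7%), a window chosen after its value was seen. Over the 20 windows, Spearman's rho between the numbers of clusters in the replicates was 0.82. This is a description, since all windows of a replicate come from the same ChIP and input library and both replicates share the local sequence.

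**Figure D5:**
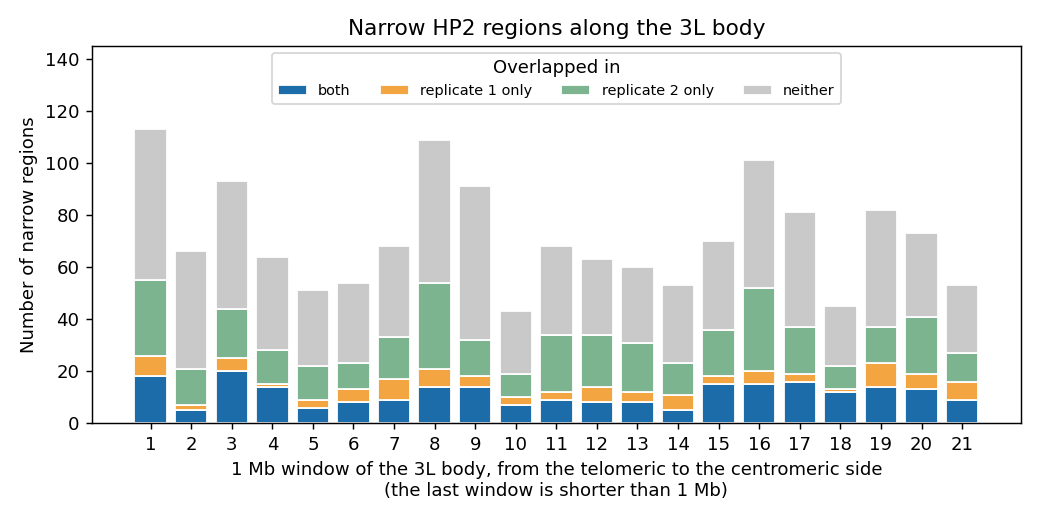
Number of narrow HP2 regions (y axis) in windows of 1 Mb of the 3L body, numbered from the telomeric to the centromeric side (x axis), coloured by the replicate lists they overlapped. Windows held 43 to 113 members, without a steady rise or fall along the arm, and the last window is shorter than 1 Mb.

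No steady rise or fall ran along the arm body toward the centromere. Divided into 3 stretches of 6.85 Mb, the body held 499 members (33.2%) in the telomeric, 480 (32.0%) in the middle and 522 (34.8%) in the centromeric stretch. The share of members in both lists was 15.6% (12.6 to 19.1%), 13.5% (10.6 to 16.9%) and 18.4% (15.2 to 22.0%) in the same order. The differences between the stretches were not tested. Median combined scores were 0.357, 0.340 and 0.342.

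The gaps between neighbouring members were uneven. They were not set against an expected spacing, and how the caller joined or split neighbouring stretches is not known. The median gap between neighbouring members was 4.40 kb, with quartiles of 1.24 and 13.8 kb, and 315 of the 1500 gaps (21%) were of 1 kb or less while 70 were over 50 kb. Members joined by gaps of 1 kb or less formed 236 runs of 2 or more, which together held 551 members (36.7%), and 15 of these runs held 4 or more. The longest run, chosen after its value was seen, had 7 members at 3L:1743154-1758426 over 15.3 kb, of which 2 were in both lists and 3 in neither. The next had 5 members each, at 3L:6956734-6965730 and at 3L:15996684-16007998. The first of these ended 5.99 kb before the start of the strongest narrow site.

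The widest gap without a member ran from 3L:13679907-13901109, over 221 kb. It held 0 broad regions, 0 clusters of replicate 1 and 1 cluster of replicate 2. Between members found in both lists the median gap was 46.1 kb and the widest 453 kb.

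Neighbouring regions were close in all 4 overlap groups. The median gap to the nearest combined region of any width was 1.21 kb for members in both lists, 1.06 kb and 1.45 kb for members in replicate 1 only and replicate 2 only, and 1.85 kb for members in neither. A neighbour within 1 kb was present for 100 of 239 members in both lists (41.8%), 47 of 99 in replicate 1 only (47.5%), 158 of 367 in replicate 2 only (43.1%) and 285 of 796 in neither (35.8%). The groups also differ in width, and how far width shortens these gaps was not tested. A broad region lay within 5 kb of 188 members (12.5%), with 31 of 239 (13.0%) in both lists against 97 of 796 (12.2%) in neither.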

How the data were processed

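HP2 ChIP-seq was analysed from 3 deposited lists of enriched regions, 1 per ChIP library and 1 for the replicate set. Reads were aligned with Bowtie 0.12.7, per the submitters' processing notes. Positions are 1-based and follow FlyBase release 5, the build named in the deposited headers. The score of each region is the authors' deposited value. Not given in the sources used here are its scale, the region caller, the threshold and the way of combining replicates. Input reads were used only within the authors' calling, and depth is unknown.

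Members were selected by position and width, and a region counted as found in a replicate when at least 1 bp overlapped. Where 2 clusters overlapped a region, the higher score was used. Overlap counting was tested on simulated regions. Shares have exact (Clopper-Pearson) 95% intervals. Analyses used Python 3.11.15, pandas 2.3.3 and scipy 1.17.1.

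The members and the quantities reported were chosen with earlier results of these data known. Regions named are the 10 highest-scoring in both lists, the 3 highest in neither, the highest in each replicate, the 3 on each side of the width limit, the extreme 1 Mb windows and the widest gap. Others are marked as chosen after their values were seen. Alternatives were stricter overlap, higher-scoring parts of the lists, other width limits, merging within 1 kb and leaving out each replicate. Nearby genes and sequence features were planned but not analysed here, because the gene table used names genes on release 6, a different build.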

Additional observations from a re-analysis of the deposited data

How the results depend on the processing

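No paired analysis was possible because the inputs were used only inside the authors' calls and no result comes from a test between groups. The number of members was 1501, and it became 966 with a minimum width of 1301 bp. It was 984 when all combined regions within 1 kb were merged first and only merged regions under 4000 bp were counted. Merged regions of at least 4000 bp dropped out, so 984 does not count all merged sites. The share in both lists (15.9%) was 13.8% where at least 50% of the region had to be covered and 13.7% with a reciprocal overlap of 50%. It was 26.1% among the higher-scoring 50% of the members and 4.13% against the higher-scoring 50% of each whole replicate list, 2.44% under 2000 bp, 20.8% under 8000 bp, 24.7% from 1301 bp up, and 11.3% with the replicate 2 list of the body shortened by score to the length of replicate 1. The share in neither list (53.0%) was 48.1% among the higher-scoring 50% of the members, 90.3% against the higher-scoring lists, 70.4% under 2000 bp, 49.5% under 8000 bp, 31.4% from 1301 bp up and 66.0% with the shortened list. Without replicate 1 or without replicate 2, the share found was 40.4% or 22.5%, and the share not found 59.6% or 77.5%, since only 1 list then has to be met. The median score of members in both lists exceeded that of members in neither by 0.116. The difference was 0.156 under both stricter overlap rules, 0.227 with the shortened list, and 0.024 or 0.067 without replicate 1 or replicate 2. Under 2000 bp it turned to -0.018, and the cause was not tested. Within 500 bp bins of width its mean was 0.128, over 3 bins that ran from -0.000404 to 0.246. From 1301 bp up the difference was 0.138. The rho between the replicate scores was 0.68 over the 206 members with a reciprocal overlap of 50% in both lists, against 0.64. The other alternatives left a share within its interval, or a count within 1.5 times. The minimum of 1301 bp, the shortened list and the rho with reciprocal overlap were chosen after seeing the data. The planned analyses of gene starts and base composition were not run.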

Other observations

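Scores shared by several regions were spaced in a regular way, which bears on what the authors' score measures. In the combined list, 146 scores were carried by at least 5 regions each, besides the commonest score of 0.465, and 70 of them (47.9%) differed from it by the base-2 logarithm of a ratio of whole numbers up to 40, within 1e-06 of the ratio. Of the 7977 scores carried by 1 region only, 95 (1.19%) did so. The shares were 56.2% against 2.04% in replicate 1 and 79.5% against 2.26% in replicate 2. Of the 3L members, 179 shared their score with another member. They made up 2.09% of the members in both lists, against 16.7% of those in neither list.

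In the 3L body, 100% of the starts and ends of combined regions were even numbers, against 51.0% of the starts in replicate 1 and 50.1% in replicate 2.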
